A study of Mus musculus with 84 samples.

Results

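The immunoglobulin genes were read in MMC9s, IL-9-producing mucosal mast cells of the small intestine, from ovalbumin-allergic BALB/c mice. Their gene names begin with Igh, Igk or Igl followed by a constant, variable or joining segment letter, or are Jchain, and Ighmbp2, which only shares the prefix, was left out. Of 55471 genes in the files, 396 had such a name, 224 of these had a read in a bulk library, and 128 had at least 20 reads summed over the 3 bulk libraries and were kept. The 128 were 53 of 185 Ighv segments, 63 of 160 Igkv segments, 1 of 3 Iglv segments, 6 of 8 heavy chain constant genes, Igkc, 3 of 4 Iglc genes and Jchain. None of the 20 Ighd segments and none of the 14 joining segments reached 20 reads, and 6 of the kept Ighv and Igkv segments are annotated as pseudogenes. Just inside the minimum lay Ighv1-43 with 20 reads, and Ighv1-39, Ighv1-83 and Igkv4-80 with 21 each. Just outside it lay Ighv1-26, Ighv1-86, Ighv10-3 and Ighv8-8 with 19 reads each.

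An antibody is made of heavy and light chains, each with a variable domain that binds antigen and a constant region that sets the class. The variable domain is assembled in each developing B cell from 1 variable, 1 (heavy chain only) diversity and 1 joining segment. A B cell and its descendants, plasma cells among them, thus carry 1 productive heavy and 1 productive light chain rearrangement. The germline segments of other cell types are not rearranged. In the intestinal wall most plasma cells make IgA, whose alpha chain is encoded by Igha and whose dimers are held together by the J chain, and the polymeric immunoglobulin receptor Pigr carries it across the epithelium. Mast cells are known for binding IgE through the receptor FcεRI and not for making antibody.

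Bulk RNA-seq had 1 library each of IL4RaY709F, IL4Ra-/- and WT MMC9s. IL4RaY709F is an IL-4 receptor alpha chain without an inhibitory tyrosine, and IL4Ra-/- is its loss of function. Bone marrow progenitors of each genotype had been transferred into ovalbumin-sensitized WT mice, which were then fed ovalbumin 7 times, at 3 challenges per week, and each library was pooled from 12 to 20 biological replicates. The transferred genotype was thus that of the progenitors, and which blood cells of the WT hosts remained is not given. A second set held 81 WT MMC9s sequenced singly, from mice given ovalbumin and alum by a gate for ST2+ and c-Kit+ cells that lacked lineage markers and IL-17RB2, were high in IL-4GFP and low in β7-integrin. The sources used here give no gate for the bulk sort.

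The bulk libraries held 2521791 (IL4RaY709F), 2330628 (IL4Ra-/-) and 2299793 (WT) reads in genes. Il4ra itself had 1831 reads in IL4RaY709F, 350 in IL4Ra-/- and 806 in WT, and the deleted exons are not given. With 1 library per genotype there is no replicate check, no p-value was computed, and every interval printed covers counting error only. A difference passed the size rule when the larger library had at least 50 reads, the ratio was at least 2-fold and its exact 95% interval excluded equality. In bulk libraries, fewer cells of a type and less RNA per cell cannot be told apart. The 14 mast cell genes summed to 97417 CPM (reads scaled to a common library total with TMM) in IL4RaY709F, 64440 in IL4Ra-/- and 68020 in WT. Of 81 single cells, 80 had at least 500 detected genes and 10000 reads, and 2 of these, cells 46 and 37, stood apart from the other 78 in their immunoglobulin reads, while cells 46, 37, 2 and 79 had the lowest sums of mast cell genes.

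The finding turns on which segments were read, so the ends of the segments that led in cells 46 and 37 and of 3 segments that set the bulk libraries apart are shown first. Each line gives the last 100 bases of the variable coding exon of the GENCODE M21 transcript (GRCm38, a C57BL/6J reference, whereas the mice were BALB/c). The stretch includes the tgt or tgc codon of the conserved second cysteine and ends where the next segment is attached. That is a diversity segment for the heavy chain and a joining segment for the light chain. Capitals mark bases without a matching base in the first segment of the same set when the 2 exons are aligned. These are substituted bases, inserted bases or bases past the end of the first segment. The leading heavy segment of cell 46, Ighv7-3 (chr12:114153180-114153279, minus strand), is followed by Ighv7-2 (chr12:113912025-113912124, minus strand) and Ighv7-4 (chr12:114222788-114222887, minus strand), on which smaller numbers of reads of that cell were placed.
Ighv7-3: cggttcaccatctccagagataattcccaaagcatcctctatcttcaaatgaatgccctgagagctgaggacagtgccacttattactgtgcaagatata
Ighv7-2: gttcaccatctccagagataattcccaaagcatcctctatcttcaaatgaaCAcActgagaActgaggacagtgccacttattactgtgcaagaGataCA
Ighv7-4: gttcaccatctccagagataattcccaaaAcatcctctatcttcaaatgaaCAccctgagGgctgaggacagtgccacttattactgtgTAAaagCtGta
Its leading light segment was Igkv4-59 (chr6:69438218-69438317, minus strand), shown with Igkv4-72 (chr6:69226854-69226953, minus strand), the second in reads.
Igkv4-59: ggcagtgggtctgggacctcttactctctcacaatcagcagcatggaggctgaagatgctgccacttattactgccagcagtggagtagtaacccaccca
Igkv4-72: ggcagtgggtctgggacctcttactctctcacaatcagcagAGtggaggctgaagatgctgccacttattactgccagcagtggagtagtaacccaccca
The leading heavy segment of cell 37 was Ighv14-3 (chr12:114059845-114059944, minus strand), shown with Ighv14-2 (chr12:113994469-113994568), Ighv14-4 (chr12:114176438-114176537) and Ighv14-1 (chr12:113931953-113932052), all on the minus strand.
Ighv14-3: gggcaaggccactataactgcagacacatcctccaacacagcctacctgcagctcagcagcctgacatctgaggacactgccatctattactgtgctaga
Ighv14-2: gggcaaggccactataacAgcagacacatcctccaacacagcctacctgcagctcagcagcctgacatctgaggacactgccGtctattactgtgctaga
Ighv14-4: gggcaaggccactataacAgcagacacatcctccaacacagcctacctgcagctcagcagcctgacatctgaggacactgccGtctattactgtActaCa
Ighv14-1: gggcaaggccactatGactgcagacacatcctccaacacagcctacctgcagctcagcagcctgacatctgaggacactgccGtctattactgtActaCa
Its leading light segment was Igkv2-109 (chr6:68303059-68303158, plus strand).
Igkv2-109: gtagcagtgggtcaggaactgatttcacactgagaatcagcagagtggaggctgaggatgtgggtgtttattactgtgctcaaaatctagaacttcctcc
Of the bulk segments, Igkv8-24 (chr6:70216858-70216957, minus strand) is shown for its reads in IL4Ra-/-, and Igkv17-127 (chr6:67861560-67861659, plus strand) and Igkv17-121 (chr6:68037219-68037318, plus strand) for theirs in WT.
Igkv8-24: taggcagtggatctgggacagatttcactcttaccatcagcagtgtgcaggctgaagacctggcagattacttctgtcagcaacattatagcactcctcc
Igkv17-127: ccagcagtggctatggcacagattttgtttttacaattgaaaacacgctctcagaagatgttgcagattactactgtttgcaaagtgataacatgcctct
Igkv17-121: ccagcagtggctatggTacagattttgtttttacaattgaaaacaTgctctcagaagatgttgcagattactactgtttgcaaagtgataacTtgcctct
Over the whole last coding exon Ighv7-3 and Ighv7-2 were 95.2% identical, Igkv4-59 and Igkv4-72 94.7%, Ighv14-3 and its 3 relatives between 95.1% and 96.1%, and Igkv17-121 and Igkv17-127 98.0%. Among Igkv segments with an annotated coding exon, Igkv8-24 was at most 91.8% identical to any other and Igkv2-109 at most 88.2%. Segments annotated as pseudogenes have no such exon and were not aligned. Reads of a rearranged and mutated BALB/c segment are counted on the nearest reference segment, so members of a pair above about 95% identity are uncertain, and how reads that fit several places were handled is not given.

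Immunoglobulin genes took the largest share of reads in IL4Ra-/- and the smallest in IL4RaY709F. The 128 kept genes held 0.346% of gene reads in IL4RaY709F (95% interval 0.338% to 0.353%), 1.82% in IL4Ra-/- (1.80% to 1.84%) and 0.816% in WT (0.805% to 0.828%). After TMM scaling, the summed immunoglobulin reads were 0.456-fold the WT level in IL4RaY709F (log2 ratio -1.13), and 2.03-fold the WT level in IL4Ra-/- (log2 ratio 1.02). Between the mutants the log2 ratio of IL4RaY709F over IL4Ra-/- was -2.16. The 3 libraries therefore lay in the order IL4Ra-/-, WT, IL4RaY709F, with intervals that did not touch.

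IgA was nearly the whole of the heavy chain signal in every library. Igha, the IgA constant gene (chr12:113254830-113260236, GRCm38, minus strand), had 3748 reads in IL4RaY709F, 17406 in IL4Ra-/- and 8453 in WT, or 604, 2566 and 1386 CPM per kb in the same order. It was lower in IL4RaY709F than in WT (log2 ratio -1.20, 95% interval -1.25 to -1.14) and 0.89 above WT on the log2 scale in IL4Ra-/- (0.85 to 0.93), which is under the 2-fold limit. Per kb of gene length, Igha held 97.8% of the heavy chain constant signal in IL4RaY709F, 97.5% in IL4Ra-/- and 98.4% in WT.

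The other heavy chain classes were minor. Ighm, the IgM constant gene that naive B cells and some plasma cells use, had 40 reads in IL4RaY709F, 214 in IL4Ra-/- and 72 in WT, and was higher in IL4Ra-/- than in WT (log2 ratio 1.42, 1.03 to 1.82). It held 1.48%, 1.70% and 1.19% of the heavy chain signal per kb in IL4RaY709F, IL4Ra-/- and WT. Among IgG genes, Ighg1 had 8 reads in IL4RaY709F, 59 in IL4Ra-/- and 18 in WT (IL4Ra-/- over WT 1.56, 0.78 to 2.41). Ighg2b had 1, 25 and 5 reads, and Ighg3 10, 21 and 4, in IL4RaY709F, IL4Ra-/- and WT, which is under the 50 reads that the size rule needs. Ighg3 and Ighd, the IgD constant gene with 7, 14 and 4 reads, had more reads in IL4RaY709F than in WT, but the intervals of their log2 ratios, -0.50 to 3.42 and -1.19 to 3.00, both included 0. Ighg2c, which BALB/c mice are known to lack in favour of an IgG2a gene, was listed with 0, 7 and 1 reads. Ighe, the IgE constant gene, had 4 reads in IL4Ra-/- and 0 in both IL4RaY709F and WT.

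**Figure D1:**
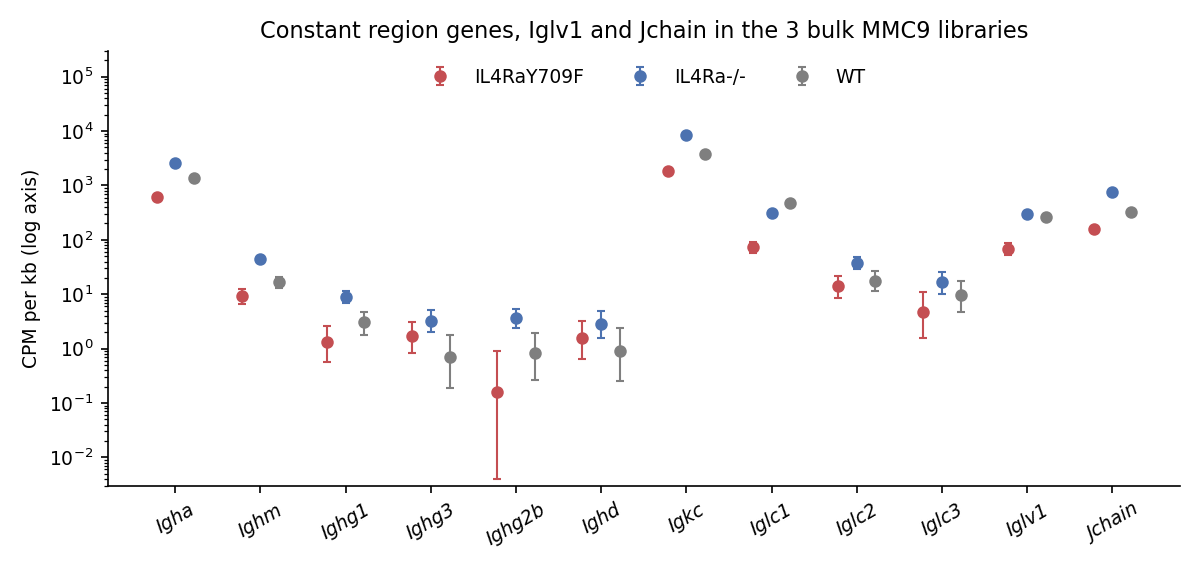
CPM per kb (log axis) of the heavy chain constant genes, light chain constant genes, Iglv1 and Jchain in the IL4RaY709F, IL4Ra-/- and WT bulk libraries; bars are exact 95% Poisson intervals of the read count. Igha, Igkc and Jchain stand in the order IL4Ra-/-, WT, IL4RaY709F, while Iglc1 is highest in WT.

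Kappa was the main light chain, and lambda stood out in WT. Igkc, the kappa constant gene (chr6:70726435-70726966, plus strand), had 2297 reads in IL4RaY709F, 11526 in IL4Ra-/- and 4610 in WT. It was lower in IL4RaY709F than in WT (log2 ratio -1.03, -1.10 to -0.96) and higher in IL4Ra-/- than in WT (1.17, 1.12 to 1.22). Iglc1, a lambda constant gene, went the other way in the knockout, with 78 reads in IL4RaY709F, 358 in IL4Ra-/- and 497 in WT. Its log2 ratio over WT was -2.70 in IL4RaY709F (-3.06 to -2.35), the lowest of the constant genes, and -0.63 in IL4Ra-/- (-0.83 to -0.43), a difference under 2-fold. Per kb, Igkc made up 95.2% of the light chain constant signal in IL4RaY709F, 95.9% in IL4Ra-/- and 88.2% in WT, and Iglc1 3.79%, 3.49% and 11.1%.

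The lambda variable gene moved with Iglc1 in one library and not in the other. Iglv1, which recombines with the lambda 1 constant gene, had 62 reads in IL4RaY709F, 302 in IL4Ra-/- and 235 in WT, and its log2 ratio over WT was -1.95 in IL4RaY709F (-2.38 to -1.54) and 0.21 in IL4Ra-/- (-0.04 to 0.46). Per read of Iglc1 there were 0.795 reads of Iglv1 in IL4RaY709F (0.560 to 1.12), 0.844 in IL4Ra-/- (0.721 to 0.986) and 0.473 in WT (0.403 to 0.553), so the WT ratio lay below both mutant intervals. Iglc2 had 20, 59 and 25 reads and Iglc3 5, 19 and 10 in IL4RaY709F, IL4Ra-/- and WT. These 2 lambda constant exons are 96.5% identical, so their split is uncertain, and Iglc2 is 73.6% identical to Iglc1. Iglc4 had no read in any library.

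Jchain followed Igha. It had 916 reads in IL4RaY709F, 4811 in IL4Ra-/- and 1851 in WT, with log2 ratios over WT of -1.04 in IL4RaY709F (-1.16 to -0.93) and 1.22 in IL4Ra-/- (1.15 to 1.30). Jchain reads per Igha read were 0.244 in IL4RaY709F (0.227 to 0.263), 0.276 in IL4Ra-/- (0.268 to 0.285) and 0.219 in WT (0.208 to 0.230), and Igkc reads per Igha read 0.613, 0.662 and 0.545. Between the highest and the lowest library the Jchain to Igha ratio differed 1.26-fold and the Igkc to Igha ratio 1.21-fold, while the CPM of Igha differed 4.25-fold.

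Counted gene by gene, the members moved with the totals, with exceptions among the V segments. In IL4RaY709F against WT, 17 of 22 members with 50 reads in either library were lower and 1 was higher, where 0.771% and 1.68% of the 5964 genes tested were lower and higher. The 17 were Igha, Igkc, Jchain, Iglc1, Iglv1, 4 Ighv and 8 Igkv segments. In IL4Ra-/- against WT, 49 of 67 were higher and 7 lower, against 2.43% and 1.3% of 6246 genes tested; the 49 were Ighm, Ighg1, Igkc, Iglc2, Jchain, 18 Ighv and 26 Igkv segments. In IL4RaY709F against IL4Ra-/-, 60 of 63 were lower and 0 higher, against 3.5% and 4.62% of 6319 genes tested. The median log2 ratio of the 128 kept genes was -0.61 in IL4RaY709F over WT, beside 0.00 over the 10479 genes with 20 reads, and 1.55 in IL4Ra-/- over WT, beside -0.03. The WT library is shared by both comparisons against it, and many members reach the read minimum only through the library in which they are high.

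**Figure D2:**
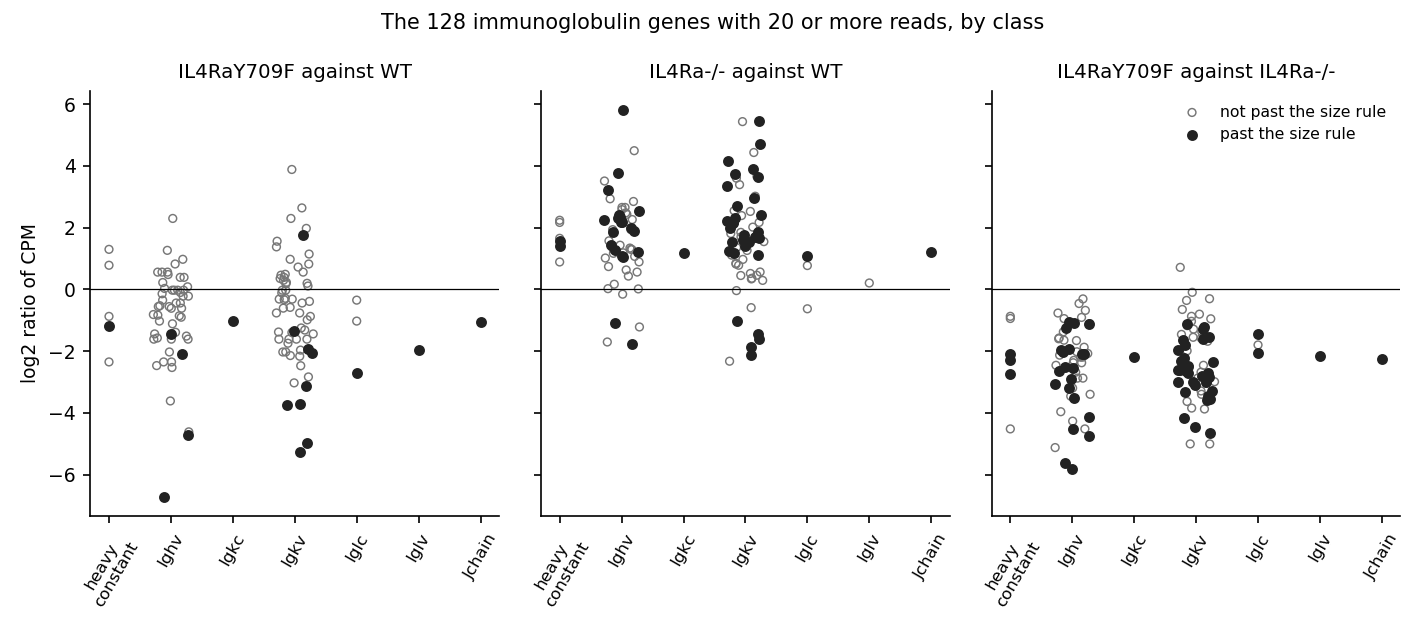
log2 ratio of CPM (vertical axis) of each of the 128 kept genes, by class (horizontal axis), in the 3 comparisons; filled points pass the size rule and open points do not. The members with IL4RaY709F over IL4Ra-/- lie below 0 with 1 exception, and in IL4Ra-/- over WT 114 lie above 0 and 14 below.

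Many kappa segments were read in each library, with Igkv10-96 first in all 3. Igkv10-96 had 121 reads in IL4RaY709F, 456 in IL4Ra-/- and 181 in WT, which is 12.1%, 9.18% and 9.29% of the reads on kept Igkv segments. It was higher in IL4Ra-/- than in WT (log2 ratio 1.18, 0.93 to 1.44) and -0.61 in IL4RaY709F over WT (-0.95 to -0.27), under the 2-fold limit. Reads were spread over 74 Igkv segments in IL4RaY709F, 85 in IL4Ra-/- and 72 in WT, and the 5 most read held 32.5%, 27.6% and 38.5% of all Igkv reads. The inverse Simpson index, which counts segments as if all were equally used, was 27.4 in IL4RaY709F, 34.01 in IL4Ra-/- and 24.1 in WT. Thinned to 1028 reads, the IL4Ra-/- library showed on average 73.7 segments and WT 67.5, beside the 74 of IL4RaY709F. At that equal depth the number in IL4Ra-/- was no longer above IL4RaY709F but still above WT.

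Heavy chain reads were also spread over many segments, with a different leader in each library. Ighv5-6 led in IL4RaY709F with 41 reads, Ighv3-6 in IL4Ra-/- with 183 and Ighv9-3 in WT with 104, or 6.88%, 6.27% and 8.94% of all Ighv reads. The inverse Simpson index of the Ighv segments was 37.8 in IL4RaY709F, 39.6 in IL4Ra-/- and 28.3 in WT. Thinned to 596 reads, IL4Ra-/- showed on average 81.1 Ighv segments and WT 80.6, beside the 78 of IL4RaY709F. Unlike for Igkv, WT was not the lowest at equal depth. Of the 10 most read segments of each library, 6 Igkv and 6 Ighv segments were common to IL4RaY709F and IL4Ra-/-, 4 and 3 to IL4RaY709F and WT, and 3 and 3 to IL4Ra-/- and WT. The 3 Igkv segments among the first 10 of every library were Igkv10-96, Igkv1-110 and Igkv5-48, and the 2 Ighv segments were Ighv3-6 and Ighv5-6.

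**Figure D3:**
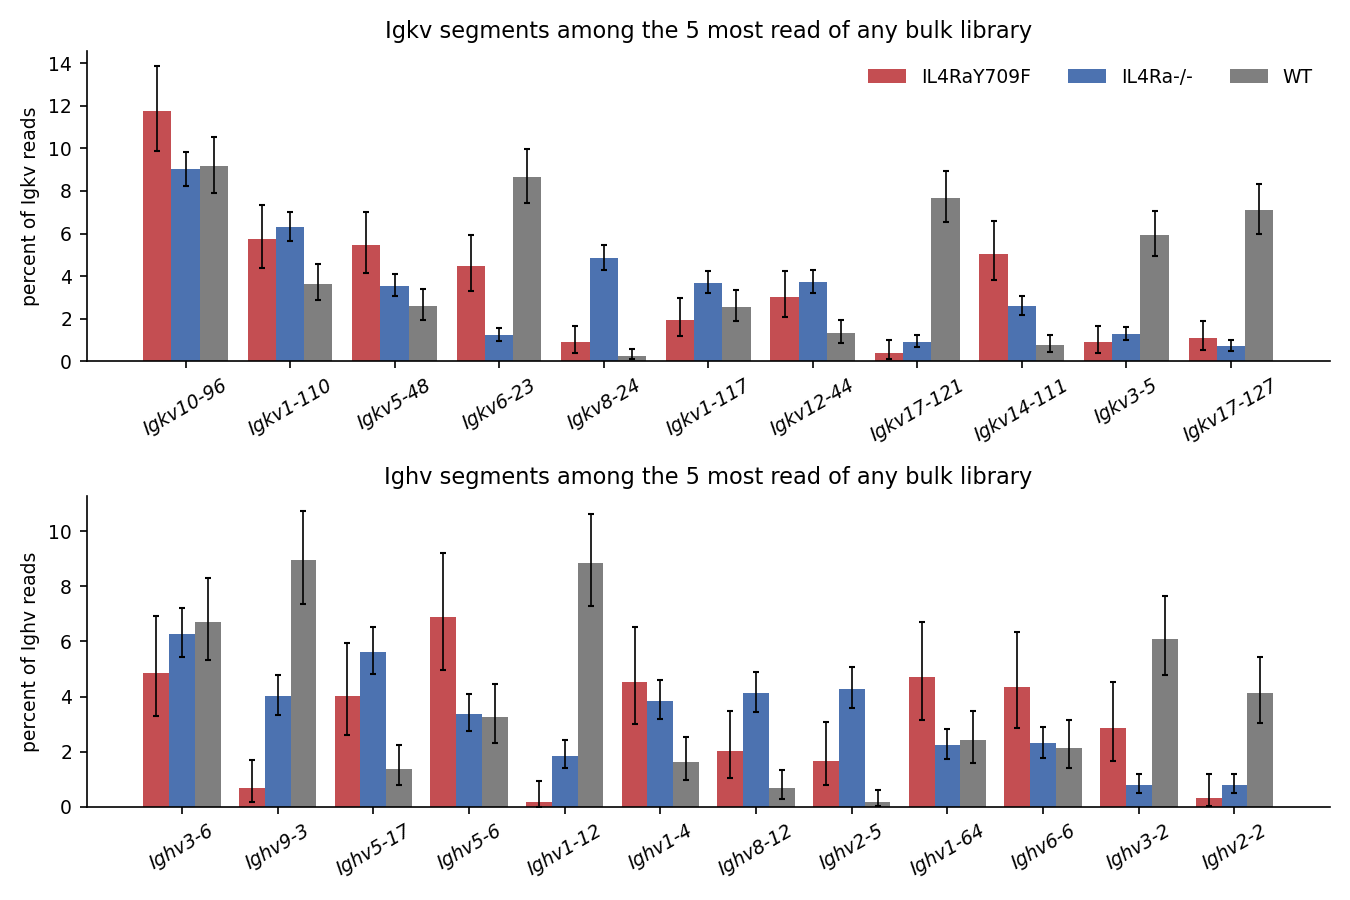
Percent of all Igkv reads (upper panel) and of all Ighv reads (lower panel) on each segment that was among the 5 most read of any bulk library; bars are IL4RaY709F, IL4Ra-/- and WT with exact 95% binomial intervals. Igkv10-96 is near 10% in every library, whereas Igkv17-121, Igkv17-127, Ighv9-3 and Ighv1-12 are largest in WT and Igkv8-24 and Ighv2-5 in IL4Ra-/-.

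A group of segments had its largest counts in WT. Igkv17-121 had 4 reads in IL4RaY709F, 46 in IL4Ra-/- and 152 in WT, and Igkv17-127 had 11, 36 and 140. Because these segments are nearly identical they were also summed: the pair had 15 reads in IL4RaY709F, 82 in IL4Ra-/- and 292 in WT, or 1.46%, 1.62% and 14.8% of all Igkv reads. The log2 ratio of the sum over WT was -4.31 in IL4RaY709F (-5.16 to -3.56) and -1.99 in IL4Ra-/- (-2.36 to -1.63). In both mutants the pair was therefore lower than in WT.

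Igkv6-23 showed the same order, with 46 reads in IL4RaY709F, 62 in IL4Ra-/- and 171 in WT (log2 ratio over WT -1.92 in IL4RaY709F and -1.62 in IL4Ra-/-). Igkv3-5 had 9, 64 and 117 reads, and Igkv8-19 2, 25 and 61. Counted singly, these 3 were lower than WT in both mutants. Each has a relative of at least 95% identity that ran the other way in IL4Ra-/- against WT. Igkv6-13 had 15, 48 and 1 reads, Igkv3-10 had 0, 59 and 12, and Igkv8-28 had 3, 32 and 5. Summed with that relative, all 3 stayed lower in IL4RaY709F than in WT (-1.52 for Igkv6-23, -3.87 for Igkv3-5 and -3.75 for Igkv8-19), but none was lower by 2-fold in IL4Ra-/- (-0.80, -0.22 and -0.37). Their difference between IL4Ra-/- and WT therefore depends on how reads were split between near-identical segments. Of the heavy segments, Ighv1-12 had 1 read in IL4RaY709F, 54 in IL4Ra-/- and 103 in WT, with log2 ratios over WT of -6.71 (-12.03 to -4.20) in IL4RaY709F and -1.09 (-1.59 to -0.60) in IL4Ra-/-. Ighv3-2 had 17, 23 and 71 reads, and was lower in both (-2.09 in IL4RaY709F and -1.78 in IL4Ra-/-). Counted singly, these 7 segments were all of the members lower in IL4Ra-/- than in WT by the size rule. With relatives summed, Igkv6-23, Igkv3-5 and Igkv8-19 dropped out, and scaled by total reads Igkv3-5 (-0.89) and Ighv1-12 (-0.95) no longer reached 2-fold. Ighv3-2 is annotated as a pseudogene, so its exon was not aligned and its relatives were not checked.

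Ighv9-3 split the mutants. It had 4 reads in IL4RaY709F, 117 in IL4Ra-/- and 104 in WT, so its log2 ratio was -4.73 in IL4RaY709F over WT (-6.63 to -3.33) and 0.02 in IL4Ra-/- over WT (-0.38 to 0.41). The Ighv9 family of 4 segments held 1.01% of all Ighv reads in IL4RaY709F, 6.17% in IL4Ra-/- and 11.2% in WT. The Ighv5 family of 22 segments ran in the opposite order, with 19.1%, 14.2% and 8.94%. The 2 largest families differed less: Ighv1 held 33.2%, 31.7% and 36.5% of Ighv reads, and Igkv4 18.2%, 18.1% and 16.4% of Igkv reads.

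Other segments were read mostly in IL4Ra-/-. Igkv8-24 has no relative of at least 95% identity among the reference segments with a coding exon. It had 9 reads in IL4RaY709F, 245 in IL4Ra-/- and 5 in WT, and its log2 ratio over WT was 5.46 in IL4Ra-/- (4.22 to 7.10). Ighv2-5 had 10, 125 and 2 reads (IL4Ra-/- over WT 5.81, 3.93 to 8.87), and its relatives of at least 95% identity, Ighv2-4 and Ighv2-2, ran the other way. Summed with both it had 13, 150 and 59 reads and was higher in IL4Ra-/- than in WT by 1.19 (0.75 to 1.65). Igkv1-88 had 9, 116 and 4 reads, Igkv6-14 had 18, 119 and 6, and Igkv3-4 had 19, 50 and 3, with log2 ratios of IL4Ra-/- over WT of 4.70, 4.16 and 3.90. Counted singly, all 5 had more reads in IL4RaY709F than in WT too, but under 50 reads in each of these libraries.

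A single segment was higher in IL4RaY709F than in WT by the size rule. Igkv14-111 had 52 reads in IL4RaY709F, 131 in IL4Ra-/- and 15 in WT, and its log2 ratio over WT was 1.77 in IL4RaY709F (0.92 to 2.70) and 2.97 in IL4Ra-/- (2.20 to 3.85). Among segments past the size rule, the largest differences between the mutants, all lower in IL4RaY709F, were those of Ighv14-1 (1 read in IL4RaY709F, 61 in IL4Ra-/- and 12 in WT, log2 ratio of IL4RaY709F over IL4Ra-/- -5.80), Ighv1-12 (-5.63), Ighv9-3 (-4.74), Igkv8-24 (-4.64) and Ighv9-4 (2, 50 and 10 reads, -4.52). Ighv14-1 shares at least 95% of its exon with 3 other segments, so its count is uncertain; summed with them it was at -2.80 (-3.40 to -2.25). Of the other segments with many reads, Igkv1-110 had 59, 320 and 72 reads, Igkv1-117 had 20, 187 and 50, Igkv5-48 had 56, 179 and 51, Ighv5-17 had 24, 164 and 16, Ighv5-6 had 41, 98 and 38, and Ighv3-6 had 29, 183 and 78, in IL4RaY709F, IL4Ra-/- and WT. Igkv1-110 and Igkv1-117 are 96.8% identical. The 6 were higher in IL4Ra-/- than in WT, with log2 ratios between 1.08 and 3.20.

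Genes of plasma cells, B cells and other cell types were read beside the members. Of 17 plasma cell genes, 11 were detected in under 5% of the single cells, and these summed to 136 reads in IL4RaY709F, 437 in IL4Ra-/- and 178 in WT, which is 0.751-fold the WT level in IL4RaY709F (0.596 to 0.944) and 2.21-fold in IL4Ra-/- (1.85 to 2.64). Pou2af1, an octamer coactivator of immunoglobulin genes in B cells, had 14, 53 and 20 reads, and Txndc5, an endoplasmic reticulum disulfide isomerase, 85, 249 and 89, both higher in IL4Ra-/- than in WT (log2 ratios 1.25 and 1.33). Tnfrsf13b, the receptor TACI, was also higher there (36, 78 and 35 reads, 1.002). It was not rare in the single MMC9s, with at least 10 reads in 21 cells, against 1 for Pou2af1 and 3 for Txndc5. Xbp1, a factor of secretory cells, had 365, 339 and 274 reads and passed in no comparison.

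More specific plasma cell genes had few reads in bulk. Sdc1, the surface proteoglycan syndecan-1, had 5 reads in IL4RaY709F, 27 in IL4Ra-/- and 18 in WT, Prdm1, the factor Blimp-1, had 20, 35 and 23, and Mzb1, a chaperone of antibody-secreting cells, had 3, 1 and 0. Irf4, used by plasma cells and by mast cells, was higher in IL4RaY709F than in WT (859, 167 and 215 reads, log2 ratio 1.97). Of 16 B cell genes only Cd37 reached 50 reads and it passed in no comparison, and 13 genes detected in few single cells summed to 45, 99 and 61 reads, with Ms4a1 at 4, 14 and 3 and Cd79a at 10, 24 and 11. Of 9 genes of V(D)J recombination, the surrogate light chain and class switching, Rag1, Rag2, Dntt and Igll1 had 0 reads in every bulk library. The octamer factors Pou2f1 and Pou2f2 passed in no comparison.

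Markers of other cell types also differed between the libraries. Macrophage genes stood in the order of the immunoglobulins. Epithelial genes were highest in IL4Ra-/- too, but their difference between IL4RaY709F and WT was within counting error. The 10 macrophage genes rare in single cells summed to 188 reads in IL4RaY709F, 1335 in IL4Ra-/- and 358 in WT, 0.516-fold WT in IL4RaY709F (0.430 to 0.617) and 3.35-fold in IL4Ra-/- (2.98 to 3.78), and 8 of 9 macrophage genes tested were higher in IL4Ra-/-, among them Csf1r, Mrc1 and Lyz2. The 11 rare epithelial genes summed to 61, 226 and 40 reads, with a log2 ratio of IL4RaY709F over WT of 0.58 (-0.02 to 1.20), and 6 rare T cell genes to 5, 31 and 12. Pigr had 12, 51 and 3 reads (IL4Ra-/- over WT 3.93, 2.305 to 6.26). The part of such cells in the immunoglobulin differences was not tested. The mast cell genes for the IgE receptor, Fcer1a, Ms4a2 and Fcer1g, passed in no comparison, with Fcer1a at 11528 reads in IL4RaY709F, 8274 in IL4Ra-/- and 8922 in WT.

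In single WT cells nearly all immunoglobulin reads came from 2 cells. Cell 46 had 1364294 of 1864955 gene reads on immunoglobulin genes, 73.2%, and cell 37 had 251790 of 523154, 48.1%. Together they held 99.5% of the immunoglobulin reads of the 80 kept cells. The third, cell 68, had 0.162%, and the median over the 80 cells was 0.00111%. Summed over the 78 other cells, immunoglobulin genes took 0.00882% of reads, which is below the 0.816% of the WT bulk library, and with the 2 cells the sum was 1.74%.

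**Figure D4:**
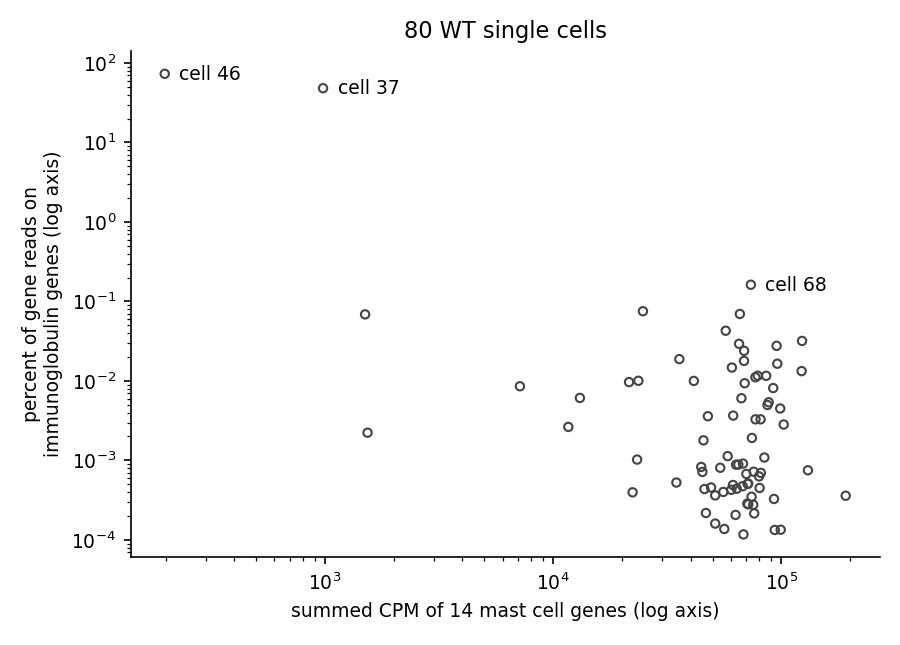
Percent of gene reads on immunoglobulin genes (vertical, log axis) against the summed CPM of 14 mast cell genes (horizontal, log axis) in the 80 kept WT cells; each point is a cell. Cells 46 and 37 lie at the upper left, with the highest immunoglobulin share, which itself lowers the CPM of every other gene, and cell 68 lies among cells with a high mast cell sum.

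Cell 46 carried a full IgA kappa set with plasma cell genes. It had 705456 reads of Igha, 380634 of Igkc and 133420 of Jchain. On the variable side it had 87238 reads of Ighv7-3, 88.4% of its Ighv reads, and 38878 of Igkv4-59, 93.5% of its Igkv reads. The remaining Ighv reads were mostly on Ighv7-2 (11283), and the remaining Igkv reads on Igkv4-72 (1238), Igkv4-70 (806) and Igkv4-63 (193), which differ from the leaders at the capitals shown above for the segments printed. Of the joining segments Igkj5 had 52 reads. Lambda was also present, with 2998 reads of Iglv1 and 1170 of Iglc2, against 138 of Iglc1 and 132 of Iglc3.

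Cell 46 also had reads of most plasma cell genes, and its sum of mast cell genes was the lowest of the kept cells. Of 17 plasma cell genes, 13 had at least 10 reads in cell 46, including Sdc1 (104), Mzb1 (627), Xbp1 (996), Prdm1 (1001), Pou2af1 (459) and Tnfrsf17, the receptor BCMA (126). Of 14 mast cell genes, 9 had at least 10 reads in cell 46 too. The 14 summed to 198 CPM in this cell, whereas the other 78 cells ranged from 1499 to 191466 CPM with a median of 67812. Taken over its reads on other genes alone, the sum was 739 CPM, still the lowest. Cpa3, the mast cell carboxypeptidase, was at 40.8 CPM in cell 46, against a median of 16989 CPM and a lowest value of 218 CPM in the 78 cells. Fcer1a (9.65 CPM) was also below their lowest (46.1 CPM). Mcpt1 (15.55 CPM), Kit (6.43) and Hdc (78.8) were low in cell 46 but within the range of the 78 cells. Ighm had 0 reads in this cell.

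Cell 37 carried an IgA and kappa set without those plasma cell genes. It had 124693 reads of Igha, 56261 of Igkc and 34394 of Jchain, and 25454 reads of Igkv2-109, 99.8% of its Igkv reads. It also had 435 reads of Iglc2 and 0 of Iglc1. Its heavy segment reads were divided among Ighv14-3 (6188), Ighv14-2 (2235), Ighv14-4 (1350) and Ighv14-1 (714), which differ at 2 to 4 of the printed bases. Of 17 plasma cell genes 1 reached 10 reads, Xbp1 with 11, while Sdc1, Mzb1, Prdm1 and Pou2af1 had 0. Vpreb3 and Vpreb1, known as partners of heavy chains in developing B cells, had 316 and 22. Its mast cell genes summed to 981 CPM, and to 1890.5 CPM over its reads on other genes alone, above cell 2 (1499.6) and cell 79 (1536.4). Mcpt1 (214 CPM), Kit (78.4), Hdc (203) and Fcer1a (80.3) were within the range of the 78 other cells, while Cpa3 (187 CPM) was below their lowest (218 CPM). The 2 cells shared neither their leading Ighv nor their leading Igkv segment, and each had 0 reads on the other's leaders.

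Of the leading segments of these 2 cells, only Ighv14-3 was among the 10 most read of its class in a bulk library. It was in place 7 in IL4Ra-/-, with 3.43% of Ighv reads. Ighv7-3 had 12 reads in IL4RaY709F, 53 in IL4Ra-/- and 13 in WT, and Igkv4-59 had 25, 59 and 30. Ighv14-3 had 11, 100 and 19 reads, and Igkv2-109 had 13, 39 and 10. The Ighv14 family of 4 similar segments held 5.03%, 7.85% and 4.47% of Ighv reads in IL4RaY709F, IL4Ra-/- and WT. Against cell 46, the share of gene reads on Igha in bulk was 0.393% of that cell's share in IL4RaY709F, 1.97% in IL4Ra-/- and 0.972% in WT.

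Among the other 78 cells, smaller counts of immunoglobulin genes appeared in several. Cell 68 had 254 reads of Igha, 407 of Igkc, 577 of Jchain and 258 of Igkv3-2 with 34 Ighv reads, and its mast cell genes stood at 73529 CPM. Other cells had a single gene without its usual partners. Cell 36 had 726 reads of Igha with 0 of Igkc and 1 of Jchain, and cell 58 had 300 of Jchain with 6 of Igha. Ighm reached 10 reads in 5 cells, cells 16 (690), 32 (598), 21 (290), 51 (130) and 18 (121), and in the first 3 of these Igkc had 8, 8 and 9. Cell 2 had 79 reads of Ighv1-19, 35 of Ighv1-33 and 26 of Ighv1-36 with 1 read of Igkc. Iglc1, the lambda gene most read in WT bulk, had 0 reads in the 78 cells.

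At 10 reads or more, an immunoglobulin gene was detected in 34 of 80 cells, and in 32 without cells 37 and 46. Igha was detected in 27 of 80 cells (33.8%, exact 95% interval 23.6% to 45.2%), Igkc in 20, Jchain in 17, Ighv7-3 in 8 and Igkv4-59 in 5. This interval takes the 80 cells as independent draws and makes no allowance for the recurrence along cell numbers described next. Low counts of the leading segments of cell 46, and less clearly of the leading light segment of cell 37, recurred along the cell numbers of the labels. This pattern was chosen after the values were seen. The 9 other kept cells whose number leaves the remainder 6 on division by 8, as 46 does, had 75 to 158 reads of Igha (median 108), 74 to 141 of Igkc and 5 to 21 of Ighv7-3, with 113 Ighv7-3 reads in all. The other 69 cells had a median of 3 Igha reads, 16 of them had at least 10, and none had more than 3 of Ighv7-3.

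For the number of cell 37 the pattern was weaker and did not include its leading heavy segment. The 8 other kept cells with the remainder 5 had 9 to 23 reads of Igha (median 11.5), and 5 of the 8 had a read of Igkv2-109, 15 reads in all. The next highest sum of Igkv2-109 was 6 reads, in the cells with the remainder 0. Ighv14-3 had 3 reads in all in the cells with the remainder 5, and 3 in those with the remainder 4. The 9 cells with remainder 6 had at least 14011 reads of Cpa3 each. The sources used here give no plate wells or library indices for the cells, and the part of library layout in these counts was not tested. Without the 10 cells with the remainder of cell 46, 24 of 70 cells had an immunoglobulin gene at 10 reads.

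**Figure D5:**
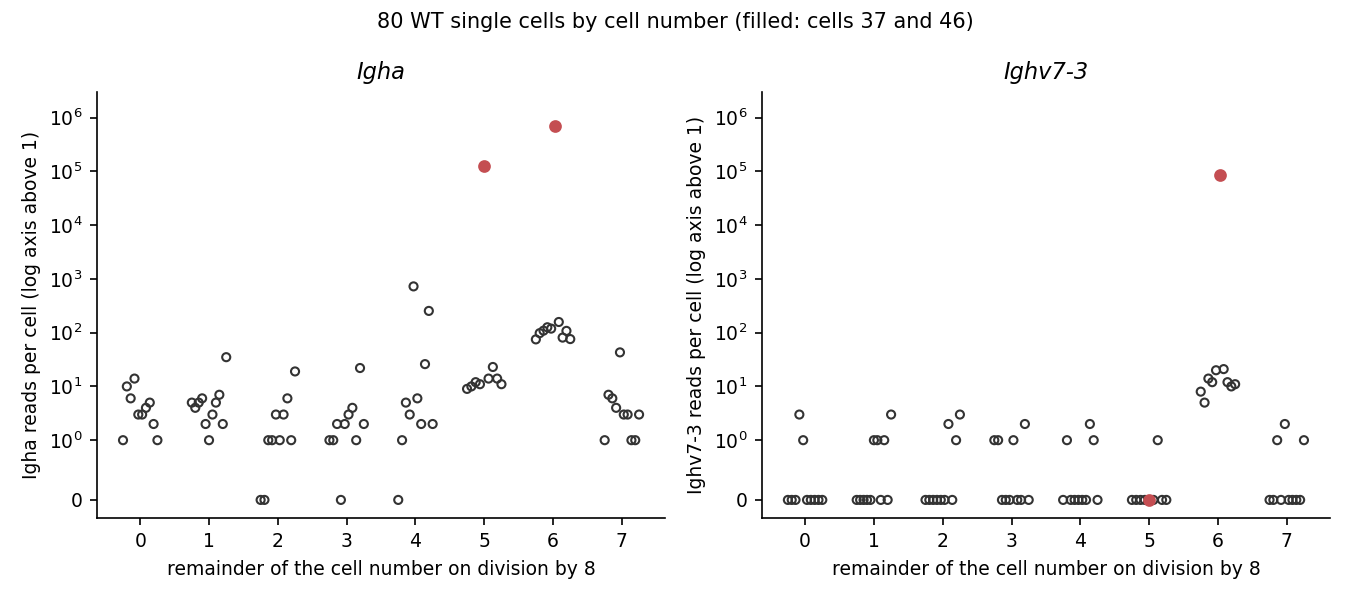
Reads of Igha (left) and Ighv7-3 (right) per cell (log axis above 1) in the 80 kept WT cells, by the remainder of the cell number on division by 8; filled points are cells 37 and 46. Cells with the remainder 6 have 75 or more Igha reads and 5 or more Ighv7-3 reads each.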

How the data were processed

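Bulk RNA-seq of 3 pooled MMC9 libraries and 81 single WT MMC9s were used. For both, the values deposited by the authors are raw counts of reads by gene. The tools named, per the submitters' processing notes, are HISAT for alignment and featureCounts (Subread 2.0.0) for counting; GRCm38 and mm9 are named without roles. The sources used here give no strand or multi-mapping setting. All 396 listed genes had the same coordinates in GENCODE M21 (GRCm38), which supplied sequences.

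Counts were scaled with TMM (edgeR 4.0.16, R 4.3.3), and ratios carry exact conditional binomial 95% intervals (scipy 1.17.1). A library at 0 was set to 3 reads in ratios. The size rule and its intervals were tested on simulated Poisson counts without spread between libraries. That is the setting the intervals assume, so the simulation cannot show how they hold between replicate libraries. Alternatives were other scalings (total reads, DESeq2 1.42.0 size factors, TMM without the members), read minima, a 1.5-fold limit, no member filter, shares without division by length, and other cell thresholds; after seeing the data, segments were also summed with relatives at least 95% identical. Cells were treated as 1 sample, because no animal is named, and were kept at 500 genes and 10000 reads; gene reads per kept cell ran from 163596 to 2210211. No doublet caller was run on individually sorted cells. Exons were aligned with Biopython 1.88, for genes with an annotated coding exon only, so pseudogenes were left out of the search for relatives. The p-values that need replicate libraries were not computed.

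Members and gene lists were chosen with earlier results of these data known. Genes named are the constant genes and Jchain; the 5 most read segments of each V class; the 5 highest and 5 lowest ratios past the size rule in each comparison; segments with 10 reads in a cell, up to 10; list genes past the rule; and 12 markers always given, of which 1 is not reported here. Cell numbers were grouped by remainder after the values were seen.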

Additional observations from a re-analysis of the deposited data

How the results depend on the processing

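With a read minimum of 20 in place of 50, members past the size rule in IL4RaY709F against WT were 4 higher and 31 lower, those higher in IL4Ra-/- against WT were 81, and those lower in IL4RaY709F against IL4Ra-/- were 100. With no minimum they were 8 and 40, 87, and 109. Without division by length, the IgA share was 98.3% in IL4RaY709F, 98.1% in IL4Ra-/- and 98.8% in WT, and the kappa share 96.4% in IL4Ra-/- and 89.7% in WT. With its family summed, Igkv10-96 held 11.3% of kept Igkv reads in IL4Ra-/-. At 1 read, 80 of 80 cells had an immunoglobulin gene, and at 50 reads 20 had one. The other 46 counts and shares under alternatives stayed within 1.5 times or within their counting interval. Of 234 ratios of named genes under other scalings, 231 kept their direction and side of the size rule; the exceptions, all scaled by total reads in IL4Ra-/- over WT, were Igha (1.02, past the rule), Ighv1-12 and Igkv3-5. Of 27 ratios of named segments with relatives summed, chosen after seeing the data, 23 kept their side of the rule; the others were Igkv6-23, Igkv3-5 and Igkv8-19 in IL4Ra-/- over WT and Igkv1-117 in IL4RaY709F over WT (-0.65). No paired analysis was possible because each genotype has 1 bulk library. Intervals cover counting error only, and segments under 50 reads were not tested.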
